A study of Mus musculus with 24 samples.

Results

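Schwann cell and myelin genes were followed in mouse thoracic aorta through 8 genes, Mbp, Mag, Pmp22, Prx, Sox10, Cdh19, Ngfr and S100b, taken by symbol from a deposited table of read counts for 25941 genes. Each symbol stood on 1 row of the table, and all 8 rows were among the 14528 genes that passed the filter on low counts. The animals were wild-type C57BL/6 males, 10 to 12 weeks old, on regular chow for 3 weeks. One diet held celecoxib at 100 mg/kg/day, the next held rofecoxib at 50 mg/kg/day, and the control diet held neither; both drugs are selective inhibitors of cyclooxygenase-2. All 24 mice, controls included, were given interleukin-1β into the peritoneum at 10 ug/kg and were killed 4 h later at zeitgeber time 11, so no group shows the aorta without the cytokine. Each diet had 8 libraries, called biological replicates by the submitters. The daily doses of the drugs differ, so no dose-matched comparison was possible.

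Schwann cells are the glia of peripheral nerves. Those around large axons wrap them in myelin, a compacted membrane held together by a few abundant proteins, while non-myelinating Schwann cells bundle small axons such as the sympathetic fibres that reach the outer coat of arteries. The transcription factor Sox10 keeps the lineage, and together with Egr2 it switches on the myelin genes. Several of the 8 genes are also known outside Schwann cells: Mbp, Mag and Sox10 in oligodendrocytes of the brain, Sox10 in melanocytes, Ngfr in sympathetic neurons, Pmp22 in fibroblasts, Prx in endothelium, and S100b in adipocytes and chondrocytes.

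The deposited counts summed to between 21668798 and 21700121 reads per library, a range of 0.145%, and levels are given as CPM, read counts scaled to a common library size after TMM scaling. The tissue label was borne out by 7 smooth muscle markers, whose summed level lay between 26060 and 42120 CPM. Oligodendrocyte markers summed to at most 0.404 CPM in any library, with Mog at 0 in 20 libraries and Olig2 and Opalin at 0 in 23 each. The 6 melanocyte markers summed to 12.1 to 24.9 CPM, nearly all of it Mitf at a mean of 16.2 CPM, which other cells make too, while Tyr was at 0 in 19 libraries. The 5 chondrocyte markers summed to 49.8 to 108.2 CPM, with Acan and Comp at means of 36.2 and 42.5 CPM and the cartilage collagen gene Col2a1 at 0.285 CPM. Adipocyte markers were abundant, with 10 of them summing to 1052 to 5280 CPM in control, 1015 to 2977 CPM in celecoxib and 1413 to 6804 CPM in rofecoxib libraries.

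Rofecoxib replicate 5 and control replicate 5 stood apart from the rest before any comparison was made. Each was the highest of its group for 7 of the 8 genes, all but S100b. The 10 genes listed as myelin proteins beside the members summed to 381 CPM in rofecoxib replicate 5 against a group median of 61.6 CPM, and to 130.8 CPM in control replicate 5 against a group median of 30.9 CPM. Neuron and axon genes were high in the same libraries: their 17 genes summed to 812 CPM in rofecoxib replicate 5, where the group median was 72.8 CPM, and to 261 CPM in control replicate 5, where it was 84.2 CPM. Dbh, the enzyme that makes noradrenaline, stood at 136.9 CPM in rofecoxib replicate 5, at 34.96 CPM in control replicate 5 and at 23.2 CPM in control replicate 6. In the remaining rofecoxib libraries its median was 1.20 CPM, though rofecoxib replicate 2 stood at 19.6 CPM. Celecoxib replicate 1 had 14.9 CPM of Dbh, where the median of the other celecoxib libraries was 0.17 CPM. The neuron and axon genes summed to 144.9 CPM in that library, against a celecoxib median of 79.2 CPM. Results that rest on rofecoxib replicate 5 or control replicate 5 are given with and without them.

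**Figure D1:**
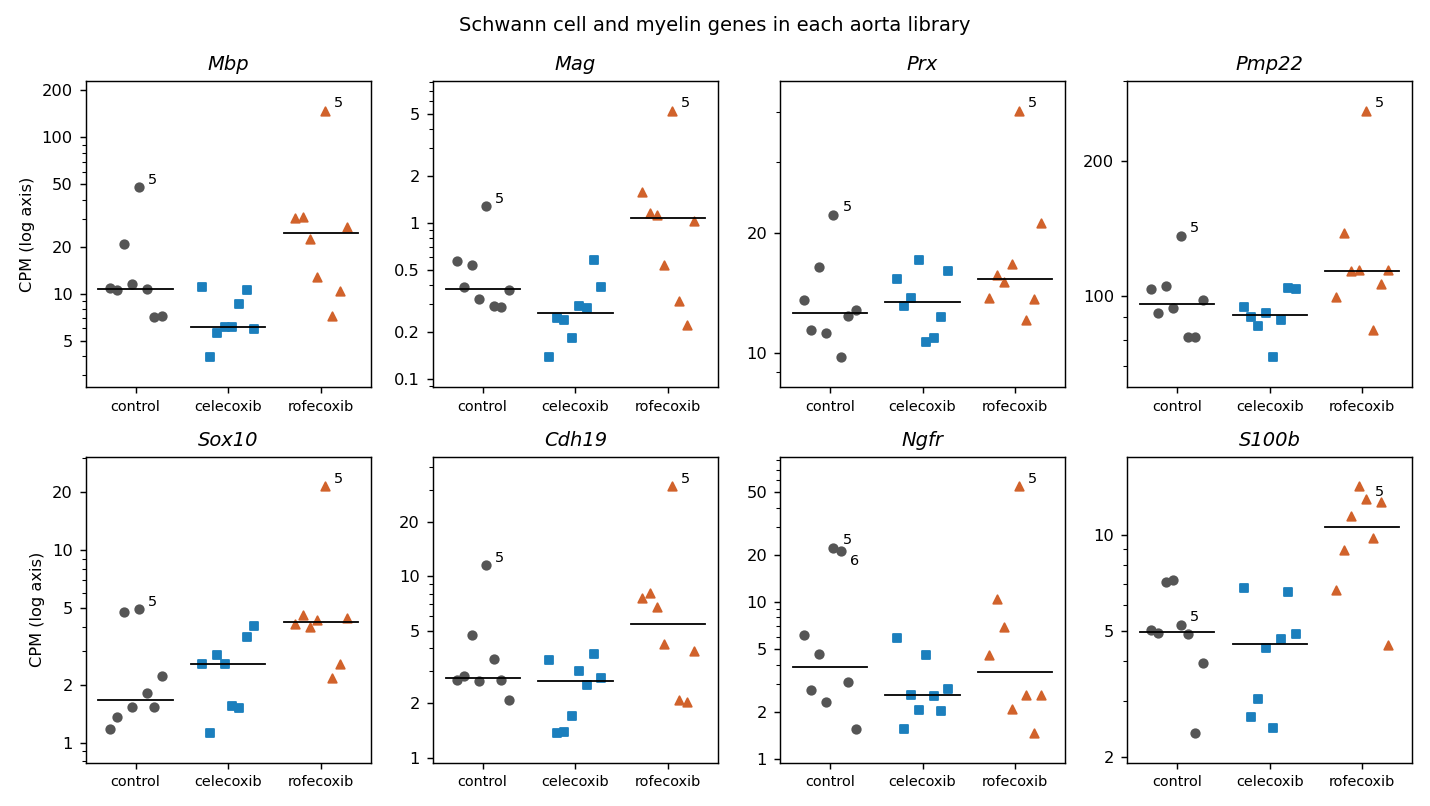
Level of each of the 8 genes in every library, in CPM on a log axis, by diet group (8 libraries each), with a black line at the group median. The number 5 marks replicate 5 of the control and rofecoxib groups and 6 marks control replicate 6; rofecoxib replicate 5 reached 148 CPM for Mbp and 54.7 CPM for Ngfr, while for S100b 6 of 8 rofecoxib libraries lay above every control.

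Per kilobase of exon, Pmp22 was the most abundant of the 8 genes and Mag the least in all 3 groups. In control aortas the median level was 40.9 CPM per kb for Pmp22, which encodes a tetraspan protein of compact myelin and is also made by fibroblasts. S100b followed at 3.34 CPM per kb, Prx at 2.26 CPM per kb and Mbp at 1.27 CPM per kb. Next came Ngfr at 1.12 CPM per kb, Cdh19 at 0.643 CPM per kb, Sox10 at 0.548 CPM per kb and Mag at 0.0929 CPM per kb. Pmp22 did not overlap S100b over the 8 control libraries, nor did Sox10 overlap Mag, while every other neighbouring pair in this order overlapped. Mag was thinly covered, with 3 to 117 reads per library, so its values are the least precise. In rofecoxib aortas the median of Mbp lay above that of Prx, at 2.90 and 2.75 CPM per kb. The ranges of this pair overlapped, and Mbp exceeded Prx in only 3 of the 8 libraries.

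The rows of Mag, Prx, Pmp22 and S100b are shown by the 250 bases upstream of an annotated start. The sequences are from RefSeq on GRCm38.p6 and read 5′ to 3′ on the strand of the gene: Mag, window 2 of 3, on the minus strand at chr7:30914864-30915113, Prx on the plus strand at chr7:27499074-27499323, Pmp22, window 1 of 4, on the plus strand at chr11:63128732-63128981, and S100b on the plus strand at chr10:76253586-76253835. Capitals mark matches, on either strand, to the SOX core letters ACAAAG or ACAATG and to the EGR core letters GTGGGNG.
Mag: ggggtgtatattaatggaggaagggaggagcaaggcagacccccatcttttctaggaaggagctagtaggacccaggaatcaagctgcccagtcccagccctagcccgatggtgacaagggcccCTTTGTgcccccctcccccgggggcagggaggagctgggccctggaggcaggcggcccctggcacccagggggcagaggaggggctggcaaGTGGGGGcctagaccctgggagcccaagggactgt
Prx: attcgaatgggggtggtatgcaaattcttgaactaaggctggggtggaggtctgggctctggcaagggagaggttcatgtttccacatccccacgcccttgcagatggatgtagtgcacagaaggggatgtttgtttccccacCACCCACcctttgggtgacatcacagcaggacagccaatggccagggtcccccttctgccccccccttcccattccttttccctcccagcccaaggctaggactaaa
Pmp22: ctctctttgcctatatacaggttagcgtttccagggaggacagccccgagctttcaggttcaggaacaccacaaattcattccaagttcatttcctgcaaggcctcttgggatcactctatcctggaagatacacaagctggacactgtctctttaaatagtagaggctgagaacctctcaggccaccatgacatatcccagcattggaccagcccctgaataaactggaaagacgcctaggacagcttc
S100b: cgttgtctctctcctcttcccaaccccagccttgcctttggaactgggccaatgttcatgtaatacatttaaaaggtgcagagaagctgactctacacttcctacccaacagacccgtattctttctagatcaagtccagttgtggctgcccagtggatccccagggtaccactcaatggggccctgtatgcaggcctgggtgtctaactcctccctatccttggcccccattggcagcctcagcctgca

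The search covered windows of 250 bases before to 50 bases after each annotated start, of which RefSeq gave 1 for S100b, 1 for Prx, 4 for Pmp22, 3 for Mag and 1 for Ngfr. Mag window 2 held ACAAAG on the minus strand of the gene, first base at -126 from the start, and an EGR core on the plus strand at -35. Mag window 3 overlaps window 2 and holds the same letters. The Prx window held 1 EGR core, on the minus strand at -107. The windows of S100b, Pmp22 and Ngfr held neither core, and none of the windows held TATAAA on the plus strand. Of all 32851 mouse windows of this length, 28.6% held either SOX core, 31.6% held the EGR core and 8.32% held TATAAA, so such matches are common, and a match is only a string of letters.

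Mbp (ENSMUSG00000041607, chr18:82644336-82755231, mm9), the basic protein that seals the inner faces of compact myelin, was low in celecoxib and high in most rofecoxib libraries. Its level had a lowest, median and highest value of 7.10, 10.75 and 47.9 CPM in control, of 3.89, 6.12 and 11.1 CPM in celecoxib and of 7.15, 24.6 and 148 CPM in rofecoxib libraries. In celecoxib 5 of 8 libraries lay below every control library, whereas in rofecoxib 1 lay above every control, so the groups overlapped. Mag (ENSMUSG00000036634, chr7:31684000-31700053, mm9), an adhesion protein of the innermost myelin wrap that faces the axon, followed the same order, with 0.286, 0.378 and 1.28 CPM in control, 0.137, 0.264 and 0.576 CPM in celecoxib and 0.222, 1.07 and 5.23 CPM in rofecoxib libraries. In bulk tissue, fewer cells of a type and less RNA per cell cannot be told apart.

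Prx and Pmp22 moved over a narrower span. Prx (ENSMUSG00000053198, chr7:28284141-28305435, mm9) encodes periaxin, which links the Schwann cell membrane to the basal lamina, and had a lowest, median and highest level of 9.76, 12.6 and 22.1 CPM in control, 10.6, 13.4 and 17.1 CPM in celecoxib and 12.1, 15.4 and 40.4 CPM in rofecoxib libraries. Pmp22 (ENSMUSG00000018217, chr11:62942282-62973251, mm9) stood at 81.1, 96.3 and 136 CPM in control, 73.1, 90.8 and 104 CPM in celecoxib and 84.4, 114 and 258 CPM in rofecoxib libraries. For both genes the 3 groups overlapped over most of their range, and rofecoxib replicate 5 was the library far above the rest.

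Sox10 (ENSMUSG00000033006, chr15:78985141-78995122, mm9) had a lowest, median and highest level of 1.18, 1.67 and 4.92 CPM in control, 1.12, 2.56 and 4.05 CPM in celecoxib and 2.16, 4.23 and 21.4 CPM in rofecoxib libraries. All 8 rofecoxib libraries lay above the control median, but only 1 lay above the highest control, and control replicates 3 and 5 stood at 4.79 and 4.92 CPM. Cdh19 (ENSMUSG00000047216, chr1:112785570-112874151, mm9), a cadherin of Schwann cell precursors, stood at 2.07, 2.75 and 11.5 CPM in control, 1.36, 2.64 and 3.72 CPM in celecoxib and 2.04, 5.47 and 31.3 CPM in rofecoxib libraries. Its rofecoxib libraries spanned the control range on both sides. Ngfr (ENSMUSG00000000120, chr11:95429930-95449251, mm9), the low-affinity neurotrophin receptor, had 1.56, 3.88 and 22.2 CPM in control, 1.56, 2.55 and 5.92 CPM in celecoxib and 1.46, 3.57 and 54.7 CPM in rofecoxib libraries. Control replicate 6 reached 21.3 CPM for Ngfr, close to control replicate 5, although it was the lowest control for Prx and Pmp22.

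S100b (ENSMUSG00000033208, chr10:75716396-75724106, mm9), a calcium-binding protein used to stain Schwann cells, did not follow the other members. It had a lowest, median and highest level of 2.38, 4.96 and 7.21 CPM in control, 2.47, 4.54 and 6.78 CPM in celecoxib and 4.49, 10.6 and 14.2 CPM in rofecoxib libraries. The rofecoxib libraries were high as a group, since 6 of 8 exceeded every control, and the highest were replicates 4 and 5. Rofecoxib replicate 8, at 4.49 CPM, was the only one below the control median. The row of S100b overlaps that of Dip2a, which held 13043 reads in all against 3447 for S100b, and with no strand setting given in the sources used here reads of the shared stretch cannot be assigned with certainty.

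The first comparison asked whether rofecoxib changed these genes against control. S100b rose 0.99 on the log2 scale (SE 0.25, 95% interval 0.49 to 1.50), with an adjusted p of 0.0224 by edgeR's quasi-likelihood test, and was the only one of the 8 called, against 6.94% of all genes tested. All 8 genes had a positive fold change, as did 54.9% of all genes tested, and 7 had an unadjusted p under 0.05, against 28.2% of all genes, with a median log2 fold change of 1.004 beside 0.02 over all genes. By the edgeR test the largest value was that of Mag, 1.46 (SE 0.49, adjusted p 0.0633). Sox10 stood at 1.30 (SE 0.43, adjusted p 0.061) and Mbp at 1.19 (SE 0.50, adjusted p 0.125) in the same edgeR fit. Ngfr had the least certain value, 0.41 (SE 0.67, 95% interval -0.96 to 1.79).

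These differences changed with 1 library of each group. Without rofecoxib replicate 5 the log2 fold change against control was 0.35 for Mbp, 0.74 for Mag, 0.63 for Sox10 and 0.28 for Cdh19, none of them called, and Ngfr turned to -0.87. Without control replicate 5, Mbp stood at 1.68 (adjusted p 0.0496 by edgeR), Mag at 1.80 (0.0432) and Sox10 at 1.52 (0.05), and 4 of the 8 genes were called, against 4.08% of all genes. With both libraries left out, an alternative chosen after the data were seen, no member passed, against 3.11% of all genes: the values were 0.84 for Mbp, 1.09 for Mag, 0.86 for Sox10 and 0.94 for S100b (adjusted p 0.052 by edgeR). S100b kept its call in 24 of 24 fits that left out 1 library, with adjusted p between 0.00732 and 0.0486 by edgeR. It lost it in replicates 1 to 4 alone, at 0.76 (adjusted p 0.209 by edgeR), and in replicates 5 to 8 alone, at 1.27 (adjusted p 0.0944 by edgeR). Those 2 fits called 0.286% and 2.78% of all genes.

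**Figure D2:**
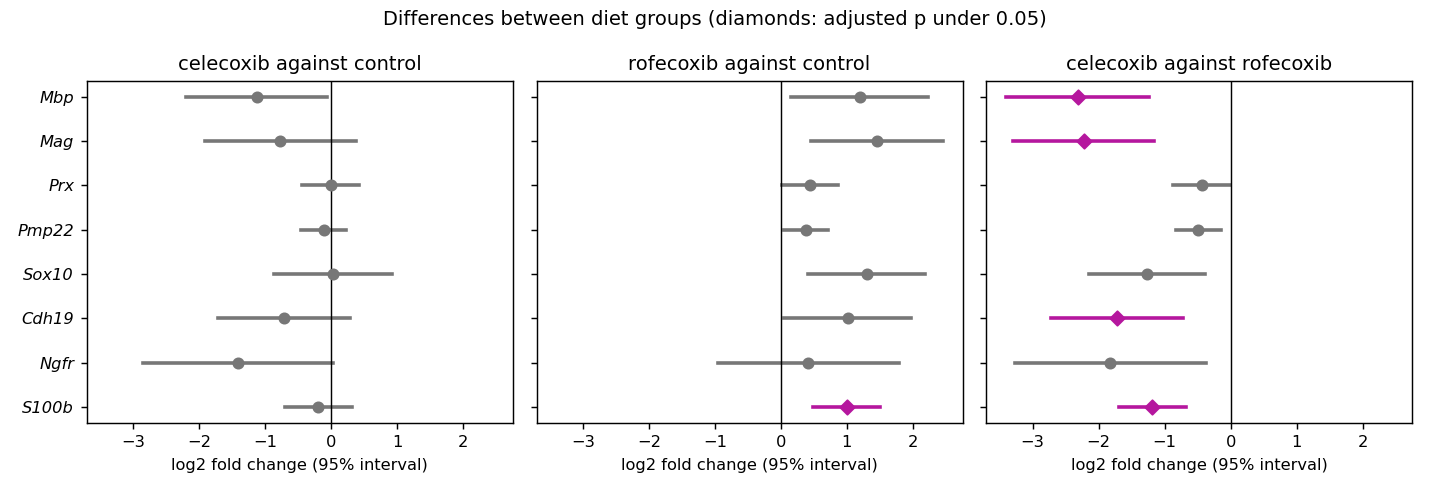
Log2 fold change of each gene between diet groups with its 95% interval from the edgeR fit of all 24 libraries; diamonds mark an adjusted p under 0.05 over all genes tested. With rofecoxib against control all 8 values lie above 0 and S100b is called, while celecoxib against rofecoxib has 4 called genes, Mbp, Mag, Cdh19 and S100b.

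Adipocyte markers moved with S100b. Of 10 general adipocyte markers, 3 were called higher with rofecoxib (3.88% of all genes) and all 10 lay above 0 (54.9% of all genes). Their median log2 fold change was 0.78. All 7 brown adipocyte markers (median 0.81), all 7 endothelial markers (0.35) and all 7 macrophage markers (0.33) lay above 0 too. Fibroblast markers lay above 0 in 5 of 7, while all 7 smooth muscle, 4 skeletal muscle and 2 chondrocyte markers tested lay below it. Skeletal muscle markers summed to 74.9 CPM in control replicate 3, against medians of 5.27 CPM in control and 5.62 CPM in rofecoxib libraries. The leptin gene Lep rose by 2.26 (SE 0.43, adjusted p 0.00627 by edgeR). With the mean level of the adipocyte list as a covariate, the S100b value against control became 0.43 (adjusted p 0.284 by edgeR) and no member was called, while the values of Mag, 1.43, Sox10, 1.15, and Mbp, 1.03, stayed near those without it. The count over all genes tested was 27 in that fit. The part of adipocyte content in the S100b result was not tested beyond this fit.

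Celecoxib against control gave no call among the 8 genes, against 0.0344% of all genes tested by edgeR, and neither DESeq2 nor limma voom called one. One of the 8, Mbp, had an unadjusted p under 0.05, against 13.6% of all genes. Its log2 fold change was -1.13 (SE 0.52, adjusted p 0.344 by edgeR). Ngfr stood at -1.41 (SE 0.70, 95% interval -2.86 to 0.03), Mag at -0.77 (SE 0.55) and Cdh19 at -0.71 (SE 0.48). Sox10, Prx, Pmp22 and S100b lay between -0.19 and 0.03, and the 95% interval of Pmp22, the narrowest, ran from -0.45 to 0.22. Of the 8 genes 7 lay below 0, as did 49.6% of all genes tested, and their median was -0.45 beside 0.00 over all genes tested.

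Without control replicate 5 the celecoxib values shrank, to -0.63 for Mbp and -0.42 for Mag, and that of Prx went from -0.01 to 0.13. Both drug comparisons share the same 8 control libraries, so the low celecoxib values and the high rofecoxib values of a gene are not independent of each other.

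Set against rofecoxib, celecoxib aortas had lower levels of 4 of the 8 genes, against 4.89% of all genes called. Mbp was lower by a log2 fold change of -2.32 (SE 0.53, adjusted p 0.0369 by edgeR) and Mag by -2.23 (SE 0.52, adjusted p 0.0369). Cdh19 stood at -1.72 (SE 0.48, adjusted p 0.0421 by edgeR) and S100b at -1.19 (SE 0.25, adjusted p 0.0369). All 8 celecoxib libraries lay below the rofecoxib median for each of these 4 genes, yet the ranges of the groups overlapped for each. The same held for Sox10 and Pmp22, which were not called. Sox10, at -1.26, Ngfr, at -1.83, Pmp22, at -0.49, and Prx, at -0.44, did not pass, with adjusted p of 0.0735, 0.115, 0.0701 and 0.199 by edgeR. All 8 genes lay below 0, as did 48.3% of all genes tested, with a median of -1.49 beside 0.01. An unadjusted p under 0.05 was reached by 8 of 8, against 23% of all genes. Markers of some other cell types were lower too. Called lower were 6 of 10 general adipocyte, 4 of 7 macrophage and 2 of 7 brown adipocyte markers, against 4.32% of all genes. No smooth muscle, endothelial, fibroblast, skeletal muscle or chondrocyte marker was called.

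Without rofecoxib replicate 5 the difference was smaller but 3 genes were still called, against 5.28% of all genes: Mbp at -1.48 (adjusted p 0.0327 by edgeR), Mag at -1.51 (0.0336) and S100b at -1.13 (0.0278), while Cdh19 fell to -0.99 (0.12). The 4 calls were close to the threshold. All of them were lost in 8 of the 24 fits that left out 1 library, those without celecoxib replicate 2, 3, 4 or 5 or rofecoxib replicate 2, 3, 4 or 7, in which at most 3 genes of the whole table were called. Replicates 1 to 4 alone gave 5 called members, against 14.1% of all genes, with Mbp at -1.86 (adjusted p 0.0121 by edgeR) and Mag at -2.42 (0.00668), and replicates 5 to 8 alone gave none, with Mbp at -2.62 (0.766). With the adipocyte level as a covariate no gene of the whole table was called in this comparison; the value of S100b was then -0.53, less than that without the covariate, and those of Mbp and Mag were -2.14 and -2.20.

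Across the 24 libraries, with each group's mean removed, 7 of the 8 genes varied together by Pearson r, and S100b less closely with them. The 21 pairs without S100b had Pearson r of log2 CPM between 0.53 and 0.94, and the 7 pairs with S100b had r between 0.03 and 0.37. Over all 28 pairs the median r was 0.75. The adjusted permutation p was under 0.05 for r in 21 pairs and for Spearman's rho in 16. Those 16 held S100b with Pmp22, at rho = 0.46 (adjusted permutation p 0.04) and r = 0.37 (adjusted permutation p 0.12). The closest pair was Mbp and Cdh19, with r = 0.94 and rho = 0.87. The permutation p of both was 1e-05, the smallest that 100000 permutations within groups can give, with an adjusted p of 0.00028. Without rofecoxib replicate 5 and control replicate 5, the libraries farthest from the Mbp median, r was still 0.86 for this pair.

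Much of the common variation came from those libraries. Without the 2 libraries farthest from the median of the first gene of each pair, the median r fell from 0.75 to 0.42. Prx and Ngfr, at r = 0.53 and rho = 0.27 (permutation p 0.031 and 0.22, adjusted 0.041 and 0.26), came to r = -0.05 without them, so this relation rests on those 2 libraries. Pmp22 and Ngfr, at r = 0.61 and rho = 0.36 (permutation p 0.017 and 0.1, adjusted 0.024 and 0.14), likewise came to r = 0.10. Prx and Mag, at r = 0.68 and rho = 0.38 (permutation p 0.0038 and 0.089, adjusted 0.0063 and 0.13), came to r = 0.27. Mbp and Mag, at r = 0.86 and rho = 0.72 (permutation p 4e-05 and 0.00056, adjusted 0.00028 and 0.0026), kept r = 0.71. Without the 2 farthest libraries the 21 pairs without S100b lay between -0.05 and 0.86. The 7 pairs with S100b then lay between -0.01 and 0.345, so the 2 kinds of pair overlapped. The median r was 0.31 within replicates 1 to 4 and 0.85 within replicates 5 to 8, the set that holds both high libraries; the labels do not call these sets batches.

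**Figure D3:**
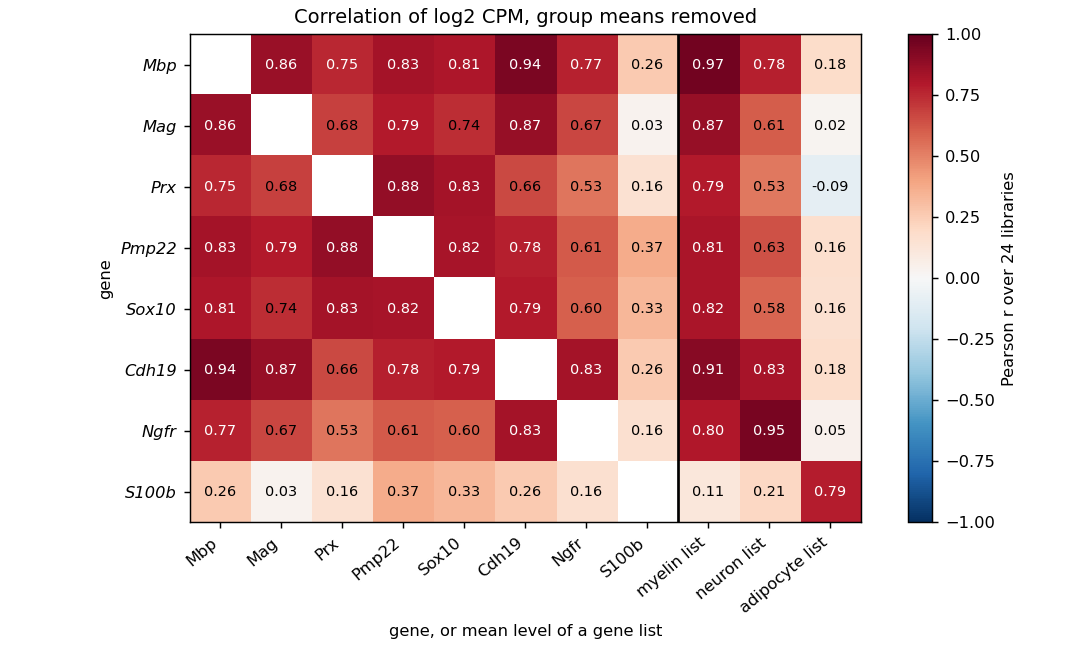
Pearson r of log2 CPM over 24 libraries after removal of group means, for each pair of the 8 genes (left of the line) and of each gene with the mean level of 3 gene lists (right of the line), on a colour scale from -1 to 1. Mbp and Cdh19 reach 0.94, the row of S100b stays between 0.03 and 0.37 among the members, and S100b reaches 0.79 with the adipocyte list.

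Set against the level of 3 gene lists, a comparison chosen after the data were seen, Mbp, Ngfr and S100b each lay closest to a different list. Mbp followed the other myelin protein genes at r = 0.97 and rho = 0.91 (permutation p 1e-05 for both, adjusted 8e-05 and 0.00012 over 24 relations), with r = 0.92 without the 2 farthest libraries. Ngfr followed the neuron and axon genes at r = 0.95 and rho = 0.90 (permutation p 1e-05 for both, adjusted 8e-05 and 0.00012), with r = 0.90 without those libraries. S100b followed the adipocyte markers at r = 0.79 and rho = 0.68 (permutation p 0.0001 and 0.001, adjusted 0.0004 and 0.0034), with r = 0.62 without its own 2 farthest libraries, rofecoxib replicate 8 and control replicate 7. Within replicates 1 to 4 the last relation had r = 0.52 and within replicates 5 to 8 it had r = 0.95.

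S100b had an r of 0.11 with the myelin list (rho = 0.15, permutation p 0.63 and 0.5, adjusted 0.72 and 0.57). With the adipocyte list the other 7 genes had r between -0.09 and 0.18 over all 24 libraries. Without the 2 farthest libraries of each gene they lay between -0.09 and 0.365. Within replicates 1 to 4 Mbp and Cdh19 each had r = 0.60 with that list, above the 0.52 of S100b. Within replicates 5 to 8 they had r = 0.13 and 0.14, against 0.95 for S100b. Cdh19 was close to the myelin list, at r = 0.91 and rho = 0.79 (permutation p 1e-05 and 0.00011, adjusted 8e-05 and 0.00084), with r = 0.80 without rofecoxib replicate 5 and control replicate 5. Its relation with the neuron list had r = 0.83 and rho = 0.74 (permutation p 4e-05 and 0.00014, adjusted 0.00024 and 0.00084), with r = 0.66 without the same libraries. Prx and the neuron list had r = 0.53 and rho = 0.23 (permutation p 0.028 and 0.31, adjusted 0.045 and 0.41), and r = -0.02 without them, so that this relation rests on those libraries. Relative levels within a library share its scaling, so these relations are descriptions of covariation.

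**Figure D4:**
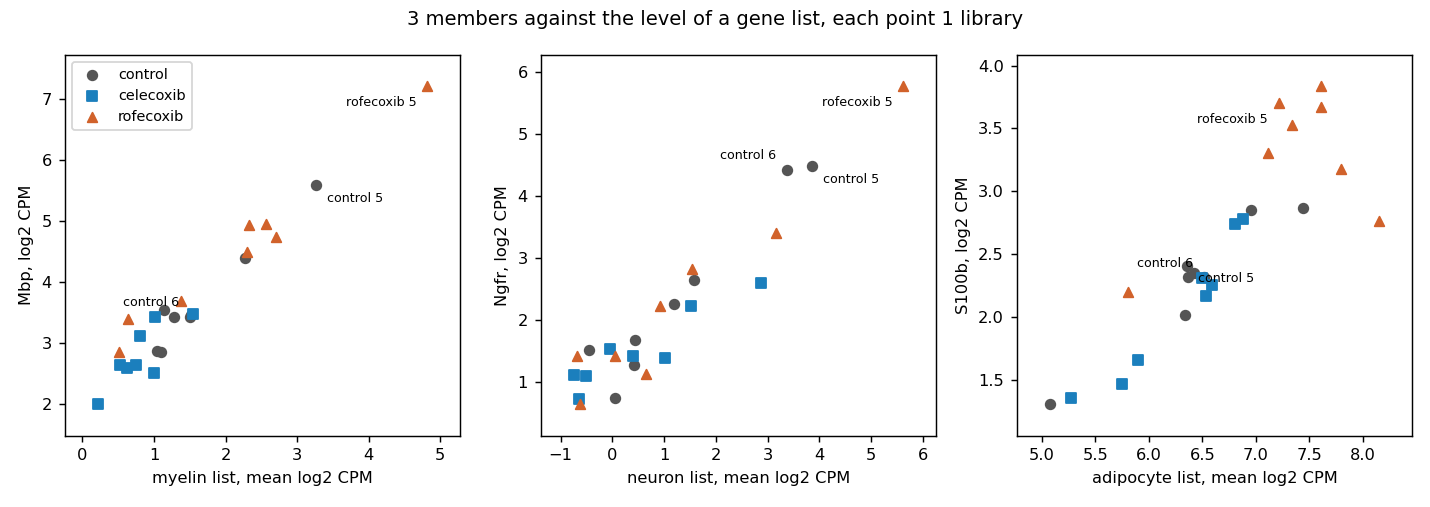
Log2 CPM of Mbp, Ngfr and S100b in each of the 24 libraries against the mean log2 CPM of the myelin list, the neuron and axon list and the general adipocyte list. Rofecoxib replicate 5 and control replicate 5 lie at the upper end for Mbp (r = 0.97 over all libraries) and Ngfr (r = 0.95), with control replicate 6 beside them for Ngfr, whereas for S100b (r = 0.79) they lie within their groups.

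By likeness over all tested genes, the profile nearest to the 8 genes on average was that of Col28a1, a collagen of peripheral nerve, with a mean r of 0.79 over 24 libraries. Cnp, an enzyme of myelin membranes, followed at 0.78, Kcna1, a potassium channel subunit, at 0.78, and then Ttyh1, Cadm4, Rasgef1c, Nrn1, Chl1 and Kcna6, down to 0.77. Col28a1 was still nearest without rofecoxib replicate 5, at 0.68. The nearest profiles to single members were Gatm for Mbp (r = 0.96) and for Mag (r = 0.92), Arhgap19 for Sox10 (r = 0.91), Gpr37l1 for Cdh19 (r = 0.97, or 0.94 without rofecoxib replicate 5) and Cnp for Pmp22 (r = 0.93) and Prx (r = 0.87). With that library left out the nearest were Sfrp5 for Mbp (r = 0.93), Aatk for Pmp22 (r = 0.84) and Hook2 for Prx (r = 0.75), while Gatm for Mag (r = 0.86) and Arhgap19 for Sox10 (r = 0.85) were again nearest. Ngfr lay nearest to Sult4a1 (r = 0.96), Prph, a neuronal intermediate filament (r = 0.96), and Syt1, a synaptic vesicle protein (r = 0.95). S100b lay nearest to Nol3 (r = 0.89), Aspa (r = 0.87) and Trim67 (r = 0.86), and without rofecoxib replicate 5 to Kng2 (r = 0.92).

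The wider pathway was read from 7 lists of 62 genes, of which 43 were tested. With rofecoxib against control 1 was called higher and 2 lower, against 6.94% of all genes, and 36 of the 43 lay above 0, with a median of 0.81 beside 0.02 over all genes. With celecoxib against control none was called by edgeR or DESeq2, 4 had an unadjusted p under 0.05 against 13.6% of all genes, and 39 lay below 0 against 49.6% of all genes. Celecoxib against rofecoxib gave 10 called lower and 1 higher, against 4.89% of all genes. That count of 11 was 2 without rofecoxib replicate 5 (5.28% of all genes), 7 without control replicate 5 (3.35%) and 6 without both (642 of 14544 genes). It was 20 with DESeq2 (9.77% of all genes) and 18 in replicates 1 to 4 alone (14.1%), and 0 with the adipocyte covariate, where no gene of the table was called.

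In celecoxib against rofecoxib, where 4.32% of all genes were called lower, myelin structural genes gave 5 called lower of 7 tested. Among them were Mal, a proteolipid of myelin membranes, at -1.77 (SE 0.46, adjusted p 0.0387 by edgeR), Pllp, at -1.90 (SE 0.49, adjusted p 0.0372 by edgeR), and Drp2, a partner of periaxin, at -2.42 (SE 0.69, adjusted p 0.0428 by edgeR). None of these 3 passed without rofecoxib replicate 5, with adjusted p of 0.0765 for Mal, 0.0577 for Pllp and 0.16 for Drp2 by edgeR. In that fit 0 of the 7 were called, though all 7 had an unadjusted p under 0.05. With both replicates 5 left out, a fit chosen after the data were seen, 4 of the 7 were called. That count used adjusted p rounded to 3 digits, which can miss a gene just under the threshold. Over all genes, without rounding, 642 of 14544 were called in that fit. The median log2 fold change of the 7 was -1.90 in all libraries and -1.19 in each of these 2 fits. Cnp, at -0.70 (SE 0.21, adjusted p 0.0553 by edgeR), did not pass, and stood at -0.38 without rofecoxib replicate 5.

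In celecoxib against rofecoxib, where 4.32% of all genes were called lower, 3 of 9 tested receptors and contact proteins were called lower. They were Erbb3, the neuregulin receptor of Schwann cells, at -1.26 (SE 0.37, adjusted p 0.0496 by edgeR), Cadm4, an adhesion protein between glia and axon, at -1.71 (SE 0.47, adjusted p 0.0412 by edgeR), and Lgi4, a secreted Schwann cell signal, at -1.14 (SE 0.33, adjusted p 0.0456 by edgeR). None of the 3 passed without rofecoxib replicate 5. The most abundant of this list, Gldn, an organiser of nodes of Ranvier, and Erbb2, the partner of Erbb3, had means of 25.5 and 25.3 CPM. Their log2 fold changes between the drugs were -0.06 (SE 0.09) and -0.02 (SE 0.07). The myelin regulator Egr2, at -1.05 (SE 0.34, adjusted p 0.0644 by edgeR), and Foxd3, a neural crest factor, at -1.69 (SE 0.56, adjusted p 0.0701 by edgeR), were the only 2 of 6 lineage factors with enough reads to test. Egr2 had -0.51 (SE 0.23) and Foxd3 -0.69 (SE 0.41) without rofecoxib replicate 5.

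Aspa, which breaks down N-acetylaspartate and is also made by adipocytes, was the listed gene that moved with S100b. It rose with rofecoxib by 1.13 (SE 0.31, adjusted p 0.0313 by edgeR) and was lower in celecoxib than in rofecoxib by -1.32 (SE 0.31, adjusted p 0.0369 by edgeR). With the adipocyte level as a covariate these values became 0.35 (adjusted p 0.376 by edgeR) and -0.38. Ugt8a, which makes the galactolipids of myelin, was the other lipid enzyme tested, at -1.58 (SE 0.53, adjusted p 0.0728 by edgeR) between the drugs. Without control replicate 5 the rofecoxib value of Aspa was 1.10, with an adjusted p of 0.0542 by edgeR.

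In the non-myelinating list 2 of 6 tested genes were called lower with rofecoxib than in control, against 3.06% of all genes. The other 4 lay above 0, and the median log2 fold change of the 6 was 0.49. Without rofecoxib replicate 5 that median was -0.26. Ncam1, a neural cell adhesion molecule, fell by 0.46 (SE 0.11, adjusted p 0.0232 by edgeR), and Ptprz1, a receptor phosphatase of glia, fell by 0.76 (SE 0.21, adjusted p 0.0348 by edgeR). Both were far more abundant than the other listed genes of that kind, at mean levels of 172.9 and 104.8 CPM over all libraries, and neither was highest in rofecoxib replicate 5, where they stood at 153.9 and 74.8 CPM. Scn7a, a sodium channel of non-myelinating Schwann cells, reached 112.3 CPM in that library and had a log2 fold change of 0.48 (SE 0.24, adjusted p 0.193 by edgeR). The value of Scn7a was 0.14 without that library. Ptprz1 lost its call without control replicate 5, at -0.71 (adjusted p 0.0667 by edgeR). With the adipocyte level as a covariate neither gene was called, with -0.28 for Ncam1 (adjusted p 0.261 by edgeR) and -0.48 for Ptprz1 (adjusted p 0.316 by edgeR).

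Among neurotrophins and their receptors, Bdnf was higher by 0.56 (SE 0.16, adjusted p 0.0442 by edgeR) and Ntrk2, the receptor of its product, lower by 0.62 (SE 0.17, adjusted p 0.0416 by edgeR) in celecoxib than in rofecoxib. Without rofecoxib replicate 5 the adjusted p was 0.0604 for Bdnf and 0.0431 for Ntrk2 by edgeR, and without control replicate 5 it was 0.0525 and 0.0505. With the adipocyte level as a covariate the value of Ntrk2 was -0.06. Sort1, a sorting receptor that partners Ngfr, had the highest mean of this list, 118.6 CPM, and a log2 fold change of -0.16 (SE 0.09) between the drugs, where Ntrk3, at a mean of 62.6 CPM, had 0.12 (SE 0.08). Of 17 neuron and axon genes 10 were tested and none was called by edgeR in any comparison; at an unadjusted p under 0.05 there were 8 in celecoxib against rofecoxib and 0 in each comparison with control. Over all genes those shares were 23%, 13.6% with celecoxib and 28.2% with rofecoxib. Without rofecoxib replicate 5, a recount chosen after the data were seen, none of the 10 had an unadjusted p under 0.05 in celecoxib against rofecoxib. Their median log2 fold change with rofecoxib against control was 1.29 in all libraries. It turned to -0.97 without rofecoxib replicate 5, where Uchl1 was called at -0.29 (SE 0.08, adjusted p 0.0352 by edgeR). Without control replicate 5 alone the median was 2.14, and without both replicates 5 it was -0.13. None of the 10 was called in either of these fits. With celecoxib against control the median was -1.29, and -0.33 without control replicate 5. Uchl1, the most abundant of them at a mean of 69.3 CPM, had -0.04 (SE 0.14) between the drugs, whereas Tubb3 had -1.87 (SE 0.74) and Dbh -3.06 (SE 1.33). When rofecoxib replicate 5 was left out these became -0.23 (SE 0.53) for Tubb3 and -0.60 (SE 1.17) for Dbh. The part of nerve content in the members' differences was not tested.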

How the data were processed

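RNA-seq of thoracic aorta from 24 mice was analysed, 8 libraries per diet. The deposited table holds whole-number read counts per gene with gene coordinates on mm9; per the submitters' processing notes CASAVA 1.8.1 and STAR 2.5.1b were used, while the counting tool, annotation and strand setting are not given in the sources used here. Per the labels' protocols the libraries were polyA-selected TruSeq libraries built over several days, with no day given per library. The authors' totals are nearly equal across libraries, and no step that explains this is given in the sources used here.

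Genes were filtered with edgeR's filterByExpr and scaled by TMM. Diets were compared in 1 fit of all 24 libraries with edgeR 4.0.16's quasi-likelihood test in R 4.3.3, adjusted by Benjamini-Hochberg over 14528 genes, and called at an adjusted p under 0.05. DESeq2 1.42.0 and limma 3.58.1 voom were alternatives. Correlations used log2 CPM with a prior count of 2 after subtraction of group means, with 100000 two-sided permutations within groups, adjusted over 28 pairs or 24 list relations. Exon lengths were from GENCODE M21 on GRCm38. The fit was tested on simulated data. Figures and summaries used Python 3.11.15.

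The members and lists were chosen with earlier results of these data known. From each pathway list, every called gene and the 3 tested genes with the highest mean CPM were to be named; by likeness, 10 genes for the members together and 3 for each member, of which the nearest are given. A few of the genes so chosen are left out of the text. The list relations, the recounts over pathway lists and of their genes without single libraries and the fit without both replicates 5 were chosen after the data were seen. Same-numbered libraries did not deviate together in every pair, so the replicate numbers were not taken to pair mice.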

Additional observations from a re-analysis of the deposited data

Results flagged for a closer look

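In 11 of 24 groups (8 genes in 3 diets) the highest library lay far from the other 7, by Dixon's test of the gap to the nearest library against the group's range; chance flags about 1 in 20 groups. All 11 were replicate 5 of the control or the rofecoxib group, and the genes of 1 library are not independent. In rofecoxib replicate 5 the level was 148.3 CPM for Mbp, where the next library had 30.8 CPM. It was 21.4 CPM for Sox10, 40.4 CPM for Prx and 258.1 CPM for Pmp22 in the same library. It was 5.23 CPM for Mag, 54.7 CPM for Ngfr and 31.3 CPM for Cdh19 there. In control replicate 5 the level was 47.9 CPM for Mbp, where the next library had 20.9 CPM. It was 136.2 CPM for Pmp22, 1.28 CPM for Mag and 11.5 CPM for Cdh19 in that library. S100b was not flagged in any group, nor was any gene in the celecoxib group.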

How the results depend on the processing

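With celecoxib against control no member was called under any alternative run. With rofecoxib against control the count of 1 called member (6.94% of all genes) became 2 with library size alone (9.75%), 3 with DESeq2 (12.5%), and 0 in replicates 1 to 4 alone, in replicates 5 to 8 alone, with the adipocyte covariate and without both replicates 5; leaving out 1 library gave 1 to 4. With celecoxib against rofecoxib the count of 4 (4.89% of all genes) became 6 with DESeq2 (9.77%), 5 in replicates 1 to 4 alone (14.1%) and 1 with limma voom (5.93%). It became 0 with no filter on low counts, with only the 2 groups compared, in replicates 5 to 8 alone and with the adipocyte covariate, fits in which no gene of the table was called, so these zeros say nothing particular to the members; leaving out 1 library gave 0 to 5. The cause was not tested.

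With the replicate block, rofecoxib against control gave 2 called members (8.17% of all genes). Celecoxib against rofecoxib gave 0, where no gene of the table was called. Same-numbered libraries correlated between -0.303 and 0.56 in their deviations, so the numbers are not known to pair mice. The highest value, 0.56, was that of rofecoxib replicate 5 and control replicate 5, the libraries that stood apart.

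Signs turned only among values that were not called. Prx in celecoxib against control, at -0.01, became 0.0179 with library size alone, 0.0126 with limma voom, 0.0492 with the replicate block, 0.0004 with a term for replicates 1 to 4 against 5 to 8, 0.17 in replicates 1 to 4 alone and 0.13 without both replicates 5, and ranged from -0.0634 to 0.127 when 1 library was left out. Sox10 there ranged from -0.11 to 0.27, and S100b became 0.18 in replicates 5 to 8 alone. Ngfr in rofecoxib against control became -0.52 with limma voom and -0.45 without both replicates 5, and ranged from -0.87 to 0.83 when 1 library was left out. The median r among members, 0.75, became 0.42 without the 2 farthest libraries. Depth limits Mag most.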
